A study of Mus musculus with 30 samples.

Results

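Mouse cells on stage II day 12 of chemical reprogramming, cultured in the FBS/KSR-SII condition (FBS/KSR cells), were compared with purified XEN-like cell lines. Each was represented by 1 bulk RNA-seq library. The comparison covered the entries of the deposited gene table that reached 1 FPKM in at least one of them, that is 13677 of its 35275 entries. FPKM counts sequenced fragments relative to the length of the gene and the size of the library. The difference for each gene was log2(FPKM + 1) in FBS/KSR cells minus log2(FPKM + 1) in XEN-like cells, and genes are called higher or lower where it reached 2-fold.

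Chemical reprogramming starts from mouse embryonic fibroblasts (MEFs) and uses small molecules. Per the labels, MEFs were cultured in stage I medium and replated on day 12. For the FBS/KSR-SII condition each well of a 6-well plate received 50000 to 200000 cells in stage I medium with less bFGF and less CHIR99021, an inhibitor of the kinase GSK3. The medium was changed to stage II medium on day 16 and to stage III medium on day 28. FBS is fetal bovine serum and KSR is a serum replacement. The labels name a feeder layer, made of mitomycin C-treated MEFs, for the N2B27-SII condition and not for FBS/KSR-SII. The XEN-like cells were lines kept in stage I medium with the compound mix VC6TFAE and 20 ng/ml bFGF. Both libraries carry the strain label C57BL/6J-Tg(GOFGFP)11Imeg/_brcxICR, a reporter background crossed with ICR. A line in one medium was therefore set against a timed culture in another, so that medium, stage and purification cannot be told apart. A difference in the embryos behind the cultures cannot be told apart from these either. Y-linked genes differed between the libraries, as given at the end. The stage II day 12 library of the N2B27-SII condition (N2B27 cells) is given beside the others for the members the results turn on. Its comparison with XEN-like cells shares the XEN-like library with the comparison described here. The day 12 library labelled OG+PDGFRAlow/-PECAM- (sorted cells) is given for the trophoblast and interferon lists, and its comparison shares that library too.

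Extraembryonic endoderm stem (XEN) cells derive from the primitive endoderm of the blastocyst. They depend on transcription factors such as Gata4, Gata6 and Sox17 and secrete the laminins and type IV collagens of basement membranes. In mouse development the primitive endoderm gives rise to parietal endoderm, which deposits a thick basement membrane, and visceral endoderm, which takes up and secretes nutrients and apolipoproteins. The pluripotent cells of the early embryo use Pou5f1, Sox2 and Nanog. The trophoblast, the outer lineage of the placenta, uses Cdx2, Elf5, Gata3 and Tfap2c and matures into cells that secrete prolactin family hormones.

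The depth recovered from the FPKM values was 15294927 reads in FBS/KSR cells and 8475843 reads in XEN-like cells. The other 12 bulk libraries held 6601290 to 11494763 reads. Mitochondrially encoded genes took 3.15% of reads in FBS/KSR cells and 2.77% in XEN-like cells. With 1 library per group, the differences have no replicate check and carry no p-value. A range after a fold is the exact 95% binomial counting interval of the ratio, and where XEN-like or FBS/KSR cells had 0 reads a floor of 3 reads stood in for them, so that the ratio is printed with "at least". Both cover counting error only, and neither covers the difference between cultures.

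Of the 13677 genes counted, 2201 (16.1%) were at least 2-fold higher in FBS/KSR cells, 1403 (10.3%) were lower and 10073 lay within 2-fold. The median difference was -0.02. The counts for gene lists below are to be read beside these shares of 16.1% and 10.3%. From a 4-fold difference, 794 (5.81%) were higher and 324 (2.37%) lower. At 8-fold the counts were 353 higher and 100 lower. At 1 FPKM or more in both libraries were 11326 genes, in FBS/KSR cells only 1561, and in XEN-like cells only 790. The shares higher and lower among the 11326 were not computed. Among the genes counted, 505 were listed at 0 in XEN-like cells and 45 at 0 in FBS/KSR cells. The members just inside the threshold of 1 FPKM were Fam174b (1 and 0.881 FPKM in FBS/KSR and XEN-like cells) and Wdr93 (1 and 0.2065 FPKM), and those just outside it were Bnc2 (0.999 and 0.258 FPKM) and Prom2 (0.999 and 0 FPKM). For comparison, 2474 genes were higher and 1195 lower in N2B27 cells than in XEN-like cells, of 13967.

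**Figure D1:**
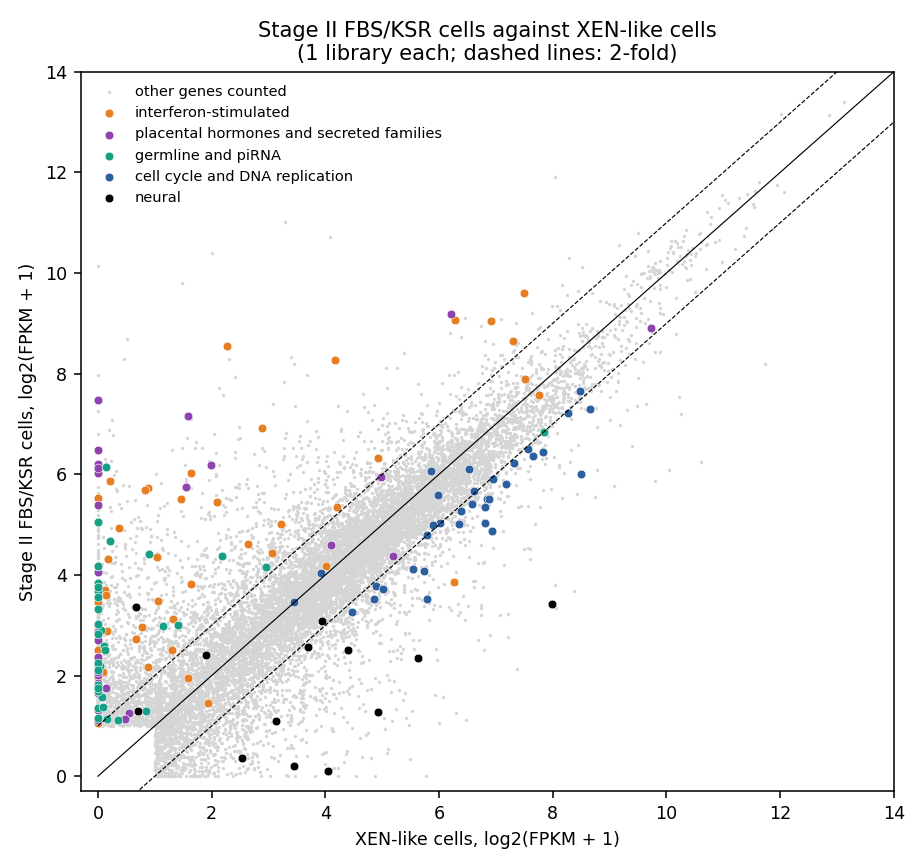
Each point is 1 of the 13677 genes counted, with log2(FPKM + 1) in FBS/KSR cells on the y axis and in XEN-like cells on the x axis (1 library each); coloured points are members of 5 gene lists and dashed lines mark a 2-fold difference. Interferon-stimulated, placental and germline genes lie mostly above the upper line, and many placental and germline genes stand at 0 in XEN-like cells, while cell cycle and neural genes lie mostly on or below the lower line.

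The extraembryonic endoderm programme was present in both libraries. The XEN-like label matched its markers. The 10 endoderm markers Gata4, Gata6, Sox17, Sox7, Foxa2, Pdgfra, Dab2, Sall4, Lama1 and Col4a1 stood between 86.7 FPKM (Sall4) and 2724 FPKM (Col4a1) in XEN-like cells. In FBS/KSR cells they stood between 9.18 FPKM (Sox7) and 3022 FPKM (Col4a1). Of 27 genes of the endoderm list, all at 1 FPKM or more in both libraries, 4 were higher and 6 lower, with a median of -0.20. That is 14.8% higher and 22.2% lower, beside 16.1% and 10.3% over all genes counted. The same list in N2B27 cells had 1 higher and 20 lower, with a median of -1.34. The libraries are bulk cultures, so that fewer cells of a type and less RNA per cell cannot be told apart.

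Among the endoderm transcription factors, the differences were unequal. Gata4 had 342 FPKM in FBS/KSR cells and 261 in N2B27 cells, against 886 in XEN-like cells, or 2.59-fold (2.525 to 2.66) lower in FBS/KSR cells. Foxa2, a forkhead factor of endoderm, had 64.3 FPKM in FBS/KSR cells and 35.6 in N2B27 cells, against 144 in XEN-like cells. Sox7, an endoderm factor expressed with Sox17, had 9.18 FPKM in FBS/KSR cells and 11.6 in N2B27 cells, against 105 in XEN-like cells, or 11.5-fold (10.4 to 12.7) lower. Gata6 and Sox17 lay within 2-fold of XEN-like cells. Gata6 stood at 92 FPKM in FBS/KSR cells and 106 FPKM in XEN-like cells, and Sox17 at 211.5 and 405 FPKM. Hnf4a, a nuclear receptor of visceral endoderm and liver, went the other way, with 19.55 FPKM in FBS/KSR cells and 11 in N2B27 cells, against 4.55 in XEN-like cells, or 4.30-fold (3.405 to 5.48) higher in FBS/KSR cells. Pdgfra, the receptor that marks primitive endoderm, was within 2-fold of XEN-like cells at 104 against 186 FPKM.

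Genes of endoderm uptake stood at different levels in the stage II libraries. Cubn, which encodes the endocytic receptor cubilin, had 127 FPKM in FBS/KSR cells and 4.475 in N2B27 cells, against 105 in XEN-like cells. Dab2, an adaptor for endocytosis, had 219.5 FPKM in FBS/KSR cells and 25.8 in N2B27 cells, against 148 in XEN-like cells. Amn, the partner that carries cubilin to the cell surface, had 15.4 FPKM in FBS/KSR cells and 1.34 in N2B27 cells, against 3.92 in XEN-like cells. For all 3 the N2B27 cells stood lowest of these libraries. FBS/KSR cells were within 2-fold of XEN-like cells for Cubn and Dab2, and 3.93-fold (2.96 to 5.29) higher for Amn.

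The list of parietal endoderm and basement membrane genes went both ways. Of 16 genes of this list, 3 were higher and 5 lower (median -0.04, a sign that changed with the scaling), and all 5 of the lower genes were at least 4-fold lower. Sparc, a calcium-binding matrix protein of parietal endoderm, was the most abundant RNA of FBS/KSR cells among the genes named by the rule, with 9164 FPKM in FBS/KSR cells and 1558 in N2B27 cells, against 4133 in XEN-like cells, or 2.22-fold (2.19 to 2.24) higher than in XEN-like cells. Nid1 and Nid2 encode nidogens, which link laminin to type IV collagen. Nid1 had 99.6 FPKM in FBS/KSR cells and 38.3 in N2B27 cells, against 30.8 in XEN-like cells, and Nid2 had 137 FPKM in FBS/KSR cells and 20.4 in N2B27 cells, against 49.2 in XEN-like cells. The laminin chains Lama1, Lamb1 and Lamc1 stood at 761, 2379 and 2993 FPKM in FBS/KSR cells, against 639, 1684 and 2025 FPKM in XEN-like cells, all within 2-fold. The type IV collagen genes Col4a1 and Col4a2 were also within 2-fold. Lower were Cited1, a transcriptional co-regulator, at 146 and 1228 FPKM in FBS/KSR and XEN-like cells, Thbd, the thrombomodulin receptor, at 8.90 and 72.7 FPKM, and Fst, the activin antagonist follistatin, at 17.8 and 108 FPKM. Vim, an intermediate filament gene that is also in the fibroblast list, was lower too, at 67.2 and 1052 FPKM. None of the lower genes named here encodes a laminin, a nidogen or a type IV collagen, and the remaining lower gene of the list is not named.

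Counted products of visceral endoderm were more often higher than lower. Of 30 genes of this list found in the table, 20 were counted, 12 of them higher and 2 lower (median 1.32). Of those 20, 6 passed the filter through the FBS/KSR library alone, so that they had to stand higher there, and 14 were at 1 FPKM or more in both libraries, with 6 higher and 2 lower. The summed level of the list was 1169 FPKM in FBS/KSR cells and 1273 FPKM in XEN-like cells. Apoe, a lipid carrier, had 589 FPKM in FBS/KSR cells and 336 in N2B27 cells, against 199 in XEN-like cells. Ttr, the thyroid hormone and retinol carrier transthyretin, had 11.2 FPKM in FBS/KSR cells and 0.218 in N2B27 cells, against 1.16 in XEN-like cells, or 9.65-fold (5.41 to 19) higher. Fgb and Fgg, fibrinogen chains, stood at 13.2 and 11.9 FPKM in FBS/KSR cells, against 1.29 and 0 FPKM in XEN-like cells. Afp, alpha-fetoprotein, the best-known visceral endoderm product, was not counted, at 0.784 FPKM in FBS/KSR cells and 0.113 FPKM in XEN-like cells. The 2 lower genes were Ihh, a hedgehog ligand, at 42.2 and 90.55 FPKM in FBS/KSR and XEN-like cells, and Cyp26a1.

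Retinoic acid handling genes went both ways. Of 19 genes counted, 4 were higher and 6 lower (median -0.30), and of the 15 at 1 FPKM or more in both 2 were higher and 5 lower. Cyp26a1, which degrades retinoic acid, had 162.5 FPKM in FBS/KSR cells and 287 in N2B27 cells, against 715 in XEN-like cells, or 4.40-fold (4.25 to 4.56) lower than in XEN-like cells. Stra6, the retinol uptake receptor, had 125 FPKM in FBS/KSR cells and 215 in N2B27 cells, against 581 in XEN-like cells. Crabp1, a cytoplasmic retinoic acid binding protein, had 9.78 FPKM in FBS/KSR cells and 310.0 in N2B27 cells, against 253 in XEN-like cells, the FBS/KSR library being lowest of these 3. Aldh1a1, which makes retinoic acid, had 18.1 FPKM in FBS/KSR cells and 1.68 in N2B27 cells, against 0.23 in XEN-like cells, or 78.7-fold (30.6 to 289.8) higher in FBS/KSR cells on 4 reads in XEN-like cells.

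Pluripotency genes were mostly higher. Of 29 naive pluripotency genes in the list, 27 were counted, and 20 were higher and 1 lower (median 2.11). Of the 27, 12 passed the filter through the FBS/KSR library alone, and 15 were at 1 FPKM or more in both libraries, with 8 higher and 1 lower. Pou5f1, which encodes the pluripotency factor Oct4, had 249.9 FPKM in FBS/KSR cells and 149 in N2B27 cells, against 0 in XEN-like cells, or at least 522-fold higher in FBS/KSR cells. Dppa5a, an RNA-binding protein of pluripotent cells, had 1122 FPKM in FBS/KSR cells and 1506 in N2B27 cells, against 0 in XEN-like cells, or at least 1962-fold higher. Both had no read in XEN-like cells and were high in both stage II conditions.

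The other core factors stood far lower. Nanog, a homeobox factor of the naive state, had 6.03 FPKM in FBS/KSR cells and 0.576 in N2B27 cells, against 0.626 in XEN-like cells, or 9.62-fold (5.26 to 19.6) higher in FBS/KSR than in XEN-like cells. The ESC library had 518 FPKM of Nanog and 232 FPKM of Sox2. Sox2, the partner of Oct4, had 10.4 FPKM in FBS/KSR cells and 9.16 in N2B27 cells, against 4.59 in XEN-like cells, and was just past 2-fold higher (1.03 on the log2 scale). Among the auxiliary factors, the nuclear receptor Esrrb had 35.4 FPKM in FBS/KSR cells and 96.9 in N2B27 cells, against 1.08 in XEN-like cells, and Zfp42 (Rex1) had 32.8 FPKM in FBS/KSR cells and 22.6 in N2B27 cells, against 1.05 in XEN-like cells. Tcl1, an activator of Akt, had 45.1 FPKM in FBS/KSR cells and 14.7 in N2B27 cells, against 0 in XEN-like cells. The 1 lower gene was Tdh, the threonine dehydrogenase of mouse ESCs, with 9.54 FPKM in FBS/KSR cells and 4.635 in N2B27 cells, against 106 in XEN-like cells. Lin28a, an RNA-binding protein that blocks let-7, stood within 2-fold of XEN-like cells at 118 against 226 FPKM. Of 14 primed or formative genes counted, 4 were higher and 3 lower (median 0.14).

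The 2-cell-like genes were read in both stage II conditions and hardly at all in XEN-like cells. These genes, of the Zscan4, Usp17l, Tcstv, Tdpoz and Pramel families, are expressed at the 2-cell stage and in a rare state of cultured pluripotent cells. Of 34 list genes in the table, 23 were counted. The 22 that passed the filter through the FBS/KSR library alone stood at 0 in XEN-like cells and were higher, and Eif1a was within 2-fold. The median was 2.96. In N2B27 cells 27 of 28 counted were higher, with a median of 3.87. Zscan4f had 47.4 FPKM in FBS/KSR cells and 103 in N2B27 cells, against 0 in XEN-like cells, and Zscan4c had 13.1 FPKM in FBS/KSR cells and 44.3 in N2B27 cells, against 0 in XEN-like cells. Pramel7 had 46 FPKM in FBS/KSR cells and 18.2 in N2B27 cells, against 0 in XEN-like cells, and for this gene the FBS/KSR cells stood highest. Copies of these families are near identical in sequence, and the sources used here do not say how shared reads were divided between them, so the level of a single copy is uncertain.

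**Figure D2:**
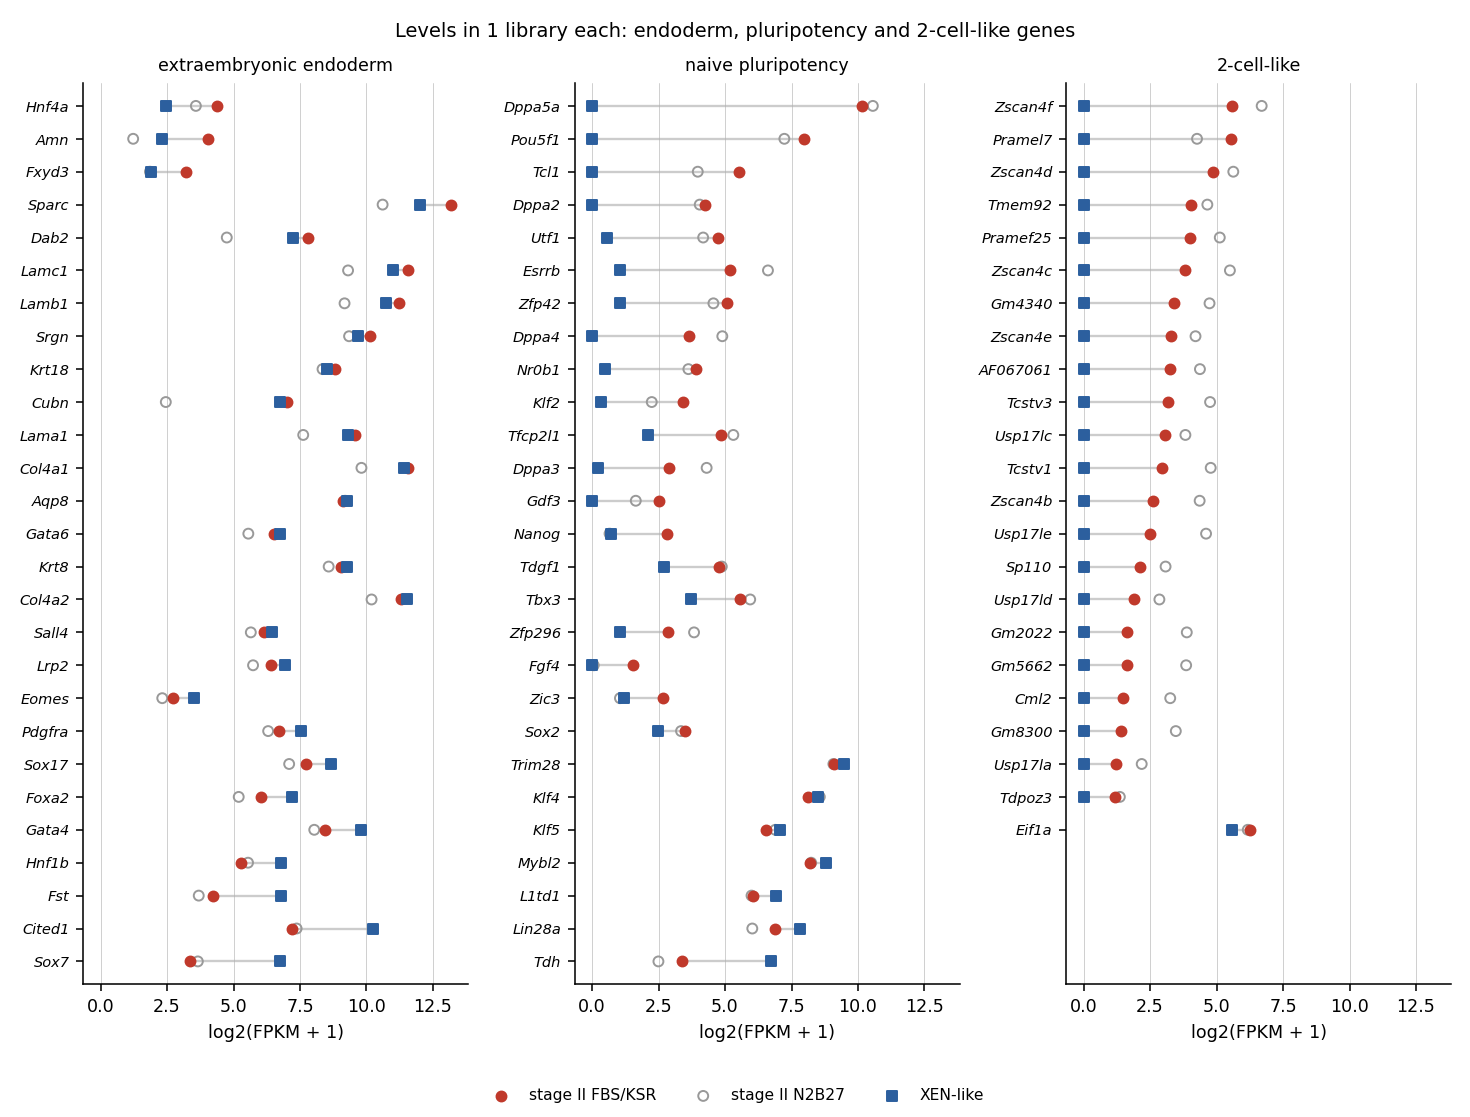
Levels of the counted members of the extraembryonic endoderm, naive pluripotency and 2-cell-like lists as log2(FPKM + 1) on the x axis, with 1 point for the FBS/KSR, N2B27 and XEN-like library each and genes ordered by the difference between FBS/KSR and XEN-like cells. Most endoderm genes stand close together in FBS/KSR and XEN-like cells and lower in N2B27 cells, the upper naive genes stand high in both stage II libraries, and of 23 2-cell-like genes 22 stand at 0 in XEN-like cells, with most highest in N2B27 cells.

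Counted trophoblast transcription factors were more often higher than lower in FBS/KSR cells. Of 19 counted, 13 were higher and 3 lower (median 1.42). Of the 19, 8 passed the filter through the FBS/KSR library alone, and 11 were at 1 FPKM or more in both, with 5 higher and 3 lower. The summed level of the list was 502.6 FPKM in FBS/KSR cells and 537 FPKM in XEN-like cells. Hand1, a factor of trophoblast giant cells, had 78.1 FPKM in FBS/KSR cells and 13.6 in N2B27 cells, against 0.0871 in XEN-like cells, with 1 read in XEN-like cells. Tfap2c, which encodes AP-2 gamma, had 53.6 FPKM in FBS/KSR cells and 11.6 in N2B27 cells, against 0.4665 in XEN-like cells, or 115-fold (60.4 to 252) higher than in XEN-like cells. Gata3 had 26.4 FPKM in FBS/KSR cells and 2.46 in N2B27 cells, against 0.903 in XEN-like cells, or 29.2-fold (14 to 73.2) higher. Elf5 had 9.37 FPKM in FBS/KSR cells and 2.79 in N2B27 cells, against 0.15 in XEN-like cells, and Ascl2, a factor of the spongiotrophoblast, had 13.53 FPKM in FBS/KSR cells and 1.07 in N2B27 cells, against 0.0733 in XEN-like cells. For these 5 genes the FBS/KSR cells stood highest of these 3 libraries. That order did not extend to the sorted cells. There Gata3 had 266 FPKM and Elf5 45.6, above FBS/KSR cells, and Hand1 had 73.25 and Ascl2 8.765, below them. Of 20 factors counted for the sorted cells, 15 were higher and 1 lower than in XEN-like cells (median 3.10).

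Not every trophoblast factor followed that order. Cdx2, the factor of trophoblast stem cells, had 3.38 FPKM in FBS/KSR cells and 43.2 in N2B27 cells, against 0.574 in XEN-like cells, and stood highest in N2B27 cells. Eomes, also of trophoblast stem cells, was within 2-fold of XEN-like cells at 5.61 against 10.3 FPKM. The homeobox gene Esx1, expressed in placenta, had 8.255 FPKM in FBS/KSR cells and 52.7 in N2B27 cells, against 133 in XEN-like cells, or 16.1-fold (13.7 to 19) lower than in XEN-like cells. Sox21 was likewise lower, with 4.73 FPKM in FBS/KSR cells and 8.69 in N2B27 cells, against 40.1 in XEN-like cells.

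Secreted placental genes that were counted stood higher in FBS/KSR cells more often than lower. Of 65 genes of this list, 36 were counted, with 30 higher and 0 lower (median 2.27). Of the 36, 28 passed the filter through the FBS/KSR library alone, and 25 of the 36 were at 0 in XEN-like cells. Of the 8 at 1 FPKM or more in both libraries, 4 were higher. In N2B27 cells 16 members were counted, 9 higher and 1 lower. Prl7a1, a prolactin family hormone, had 177 FPKM in FBS/KSR cells and 0 in N2B27 cells, against 0 in XEN-like cells, or at least 459.9-fold higher in FBS/KSR than in XEN-like cells. Prl3d1, placental lactogen of giant cells, had 41.1 FPKM in FBS/KSR cells and 0.312 in N2B27 cells, against 0 in XEN-like cells. Ctsj, a placental cathepsin, had 88.4 FPKM in FBS/KSR cells and 0 in N2B27 cells, against 0 in XEN-like cells, or at least 319-fold higher.

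Further members included secreted and membrane proteins of placenta. Tpbpa, the marker of spongiotrophoblast, had 4.05 FPKM in FBS/KSR cells and 0.0967 in N2B27 cells, against 0 in XEN-like cells. Psg29, of the pregnancy-specific glycoproteins, had 17 FPKM in FBS/KSR cells and 0 in N2B27 cells, against 0 in XEN-like cells. Plac1, a placental membrane protein, had 52.4 FPKM in FBS/KSR cells and 2.40 in N2B27 cells, against 1.91 in XEN-like cells, or 27.45-fold (17 to 47.3) higher than in XEN-like cells. The reproductive homeobox gene Rhox9 differed in that both stage II libraries were high, with 68.9 FPKM in FBS/KSR cells and 46 in N2B27 cells, against 0 in XEN-like cells. Peg10, an imprinted gene required for placenta, was within 2-fold of XEN-like cells at 479 against 848 FPKM. The prolactin, placental cathepsin, Psg and Rhox genes are tandem families, so levels of single copies are uncertain where reads were shared.

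**Figure D3:**
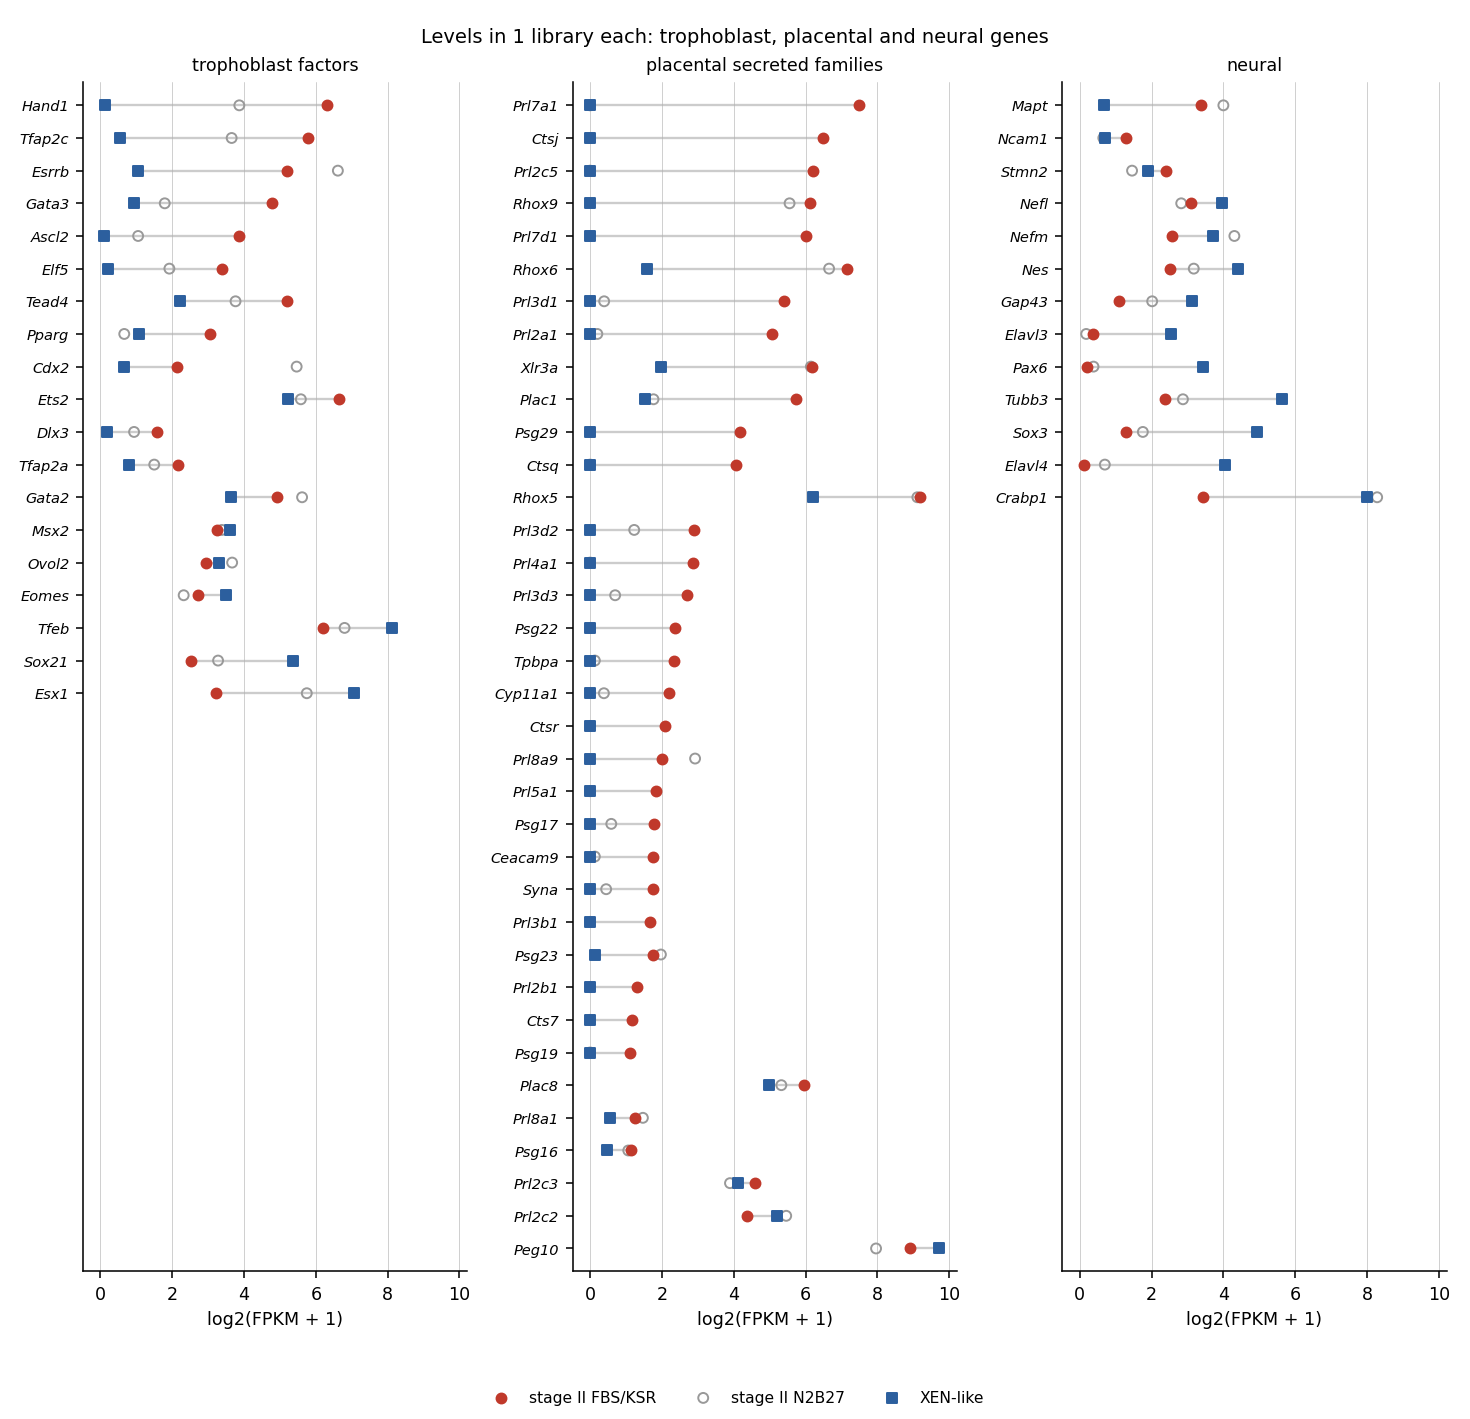
Levels of the counted trophoblast transcription factors, placental secreted genes and neural genes as log2(FPKM + 1) on the x axis, 1 library each for FBS/KSR, N2B27 and XEN-like cells. Of the libraries shown, Hand1, Tfap2c and Gata3 and most prolactin and cathepsin genes stand highest in FBS/KSR cells. Crabp1, Tubb3, Pax6 and Sox3 stand lower in FBS/KSR than in XEN-like cells.

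Germline genes were read at low to moderate levels. Of 46 list genes in the table, 34 were counted, with 30 higher and 1 lower (median 2.18). Of the 34, 29 passed the filter through the FBS/KSR library alone, and 16 of the 34 were at 0 in XEN-like cells. Of the 5 at 1 FPKM or more in both libraries, 4 were higher and 1 lower. Tex19.1, which restrains transposable elements in germ cells and placenta, had 69.4 FPKM in FBS/KSR cells and 57.3 in N2B27 cells, against 0.11 in XEN-like cells. Fkbp6, a co-chaperone of meiosis and the piRNA pathway, had 32.3 FPKM in FBS/KSR cells and 67.85 in N2B27 cells, against 0 in XEN-like cells. Dazl, an RNA-binding protein of germ cells, had 6.53 FPKM in FBS/KSR cells and 12.5 in N2B27 cells, against 0.0401 in XEN-like cells. Ddx4, the germ cell helicase, reached 1.98 FPKM in FBS/KSR cells and 0.042 FPKM in XEN-like cells. The lower gene was Kit, the receptor of stem cell factor, at 114 against 230.1 FPKM, just past the threshold.

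Several of these genes have promoters with an E2F type motif, which E2F6 and related repressors are known to bind at germline genes. The letters GCGGGAA, searched on both strands from 250 bases before to 50 bases after the RefSeq start, stood in 7 of the 24 higher germline genes with a promoter in the table (29.2%). They stood in 9.96% of the 9889 counted genes with a promoter and in 5.29% of 27025 genes with one, and in 8.2% of all higher and 11.2% of all lower genes with one. The 7 germline genes include the related Tuba3a and Tuba3b, whose letters around the match are nearly the same. The 24 genes belong to a list of germline genes, so their share describes that list. The share among list members that were not higher was not computed. A match is a description of letters and says nothing of binding. The stretches below are the 60 bases around the match in 4 germline genes, 5′ to 3′ on the strand of the gene in RefSeq build GRCm38.p6, with the motif or its reverse complement in capitals. They lie at chr6:125286167-125286226, minus strand (Tuba3a), chr5:138280481-138280540, plus strand (Stag3), chr10:88459415-88459474, plus strand (Sycp3) and chr3:95559557-95559616, plus strand (Hormad1).
Tuba3a: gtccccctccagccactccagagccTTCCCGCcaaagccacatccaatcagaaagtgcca
Stag3: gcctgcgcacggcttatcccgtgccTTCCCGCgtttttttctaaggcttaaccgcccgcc
Sycp3: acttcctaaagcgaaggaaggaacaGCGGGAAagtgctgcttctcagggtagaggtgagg
Hormad1: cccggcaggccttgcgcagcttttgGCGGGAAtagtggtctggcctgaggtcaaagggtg
Tuba3a, a testis alpha-tubulin, had 24.7 FPKM in FBS/KSR cells and 56.6 in N2B27 cells, against 0.156 in XEN-like cells. Its level is uncertain where reads were shared with Tuba3b. Stag3, a meiotic cohesin subunit, had 19.7 FPKM in FBS/KSR cells and 19.9 in N2B27 cells, against 3.52 in XEN-like cells. The meiotic axis proteins Sycp3 and Hormad1 reached 2.24 and 1.55 FPKM in FBS/KSR cells and were at 0 in XEN-like cells.

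Interferon-stimulated genes were higher almost throughout. Of 49 in the list, 48 were counted, with 42 higher and 1 lower (median 2.28). Of the 48, 22 passed the filter through the FBS/KSR library alone, and 26 were at 1 FPKM or more in both libraries, with 20 higher and 1 lower. In N2B27 cells 30 of 42 counted were higher and 1 lower. In the sorted cells 40 of 47 were higher and 2 lower (median 2.68). The summed level of the list was 4276 FPKM there, beside 4256 FPKM in FBS/KSR cells, so a high level was not particular to FBS/KSR cells. Isg15, a ubiquitin-like modifier induced by interferon, had 57.25 FPKM in FBS/KSR cells and 22.1 in N2B27 cells, against 0.156 in XEN-like cells. Irf7, which drives interferon transcription, had 51.8 FPKM in FBS/KSR cells and 17.3 in N2B27 cells, against 0.835 in XEN-like cells, or 62-fold (31.3 to 144) higher than in XEN-like cells. Lgals3bp, a secreted glycoprotein, had 372 FPKM in FBS/KSR cells and 62.8 in N2B27 cells, against 3.81 in XEN-like cells, or 97.7-fold (68.7 to 144) higher.

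Sensors, effectors and antigen presentation genes shared this direction. Ddx58, which encodes the RNA sensor RIG-I, had 44.65 FPKM in FBS/KSR cells and 8.38 in N2B27 cells, against 1.75 in XEN-like cells. The antiviral genes Rsad2 and Ifit1 were at 0 in XEN-like cells and at 9.98 and 4.65 FPKM in FBS/KSR cells. Psmb9, a subunit of the immunoproteasome, had 44.9 FPKM in FBS/KSR cells and 39.75 in N2B27 cells, against 0 in XEN-like cells, or at least 141-fold higher. The transporter subunit Tap1 and the class I light chain B2m also stood higher. Tap1 had 42.5 FPKM in FBS/KSR cells and 27.45 in N2B27 cells, against 3.295 in XEN-like cells, and B2m had 530.4 FPKM in FBS/KSR cells and 204 in N2B27 cells, against 119 in XEN-like cells, or 4.45-fold (4.15 to 4.78) higher. The 1 lower gene, Ifitm1, is a membrane protein also expressed in germ cells and early embryos and had 13.4 FPKM in FBS/KSR cells and 11.7 in N2B27 cells, against 76.2 in XEN-like cells. Members of the Oas family resemble each other, so their single levels are uncertain.

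The interferon response element was frequent in promoters of the higher members of this list. The element, written as GAAA, 2 bases of any kind and GAAA, was searched on both strands of the same window. It stood in 16 of the 31 higher list genes with a promoter (51.6%). It stood in 5.37% of the 1452 higher genes with a promoter, in 3.67% of the 1007 lower genes and in 3.55% of all counted genes with one. Of 27025 genes with a promoter in the table, 3.99% held it. The 31 genes belong to a list of known interferon-stimulated genes, so their share describes that list. The share among list members that were not higher was not computed. A match says nothing of binding or of an interferon response in these cultures. The stretches below show 60 bases around the match, 5′ to 3′ on the strand of the gene, with the matched letters on either strand in capitals. They lie at chr4:156200862-156200921, minus strand (Isg15), chr12:26456538-26456597, minus strand (Rsad2), chr8:71537568-71537627, minus strand (Bst2), chr19:34640760-34640819, plus strand (Ifit1) and chr2:122147523-122147582, plus strand (B2m), all in GRCm38.p6.
Isg15: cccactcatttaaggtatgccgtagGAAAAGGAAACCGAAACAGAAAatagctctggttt
Rsad2: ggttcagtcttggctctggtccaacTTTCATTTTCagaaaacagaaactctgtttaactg
Bst2: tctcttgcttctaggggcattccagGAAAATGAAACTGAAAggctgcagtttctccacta
Ifit1: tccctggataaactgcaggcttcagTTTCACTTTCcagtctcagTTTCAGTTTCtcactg
B2m: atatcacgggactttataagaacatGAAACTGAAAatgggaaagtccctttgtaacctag
Isg15 shows 3 matches that overlap, and Ifit1 shows 2 matches apart. Bst2, the membrane tether tetherin, had 535 FPKM in FBS/KSR cells and 511 in N2B27 cells, against 77.1 in XEN-like cells. The octamer ATGCAAAT was found in 2.48% of higher, 2.28% of lower and 1.68% of all counted genes with a promoter, the CCAAT box (CCAAT) in 40.9%, 46.1% and 43% of the same sets, and the TATA box (TATAAA) in 12.3%, 10.2% and 8.61%.

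Immediate early genes, which are transcribed within minutes of growth factor or stress signals, stood higher. Of 21 counted, 14 were higher and 1 lower (median 2.57), and 18 of the 21 were at 1 FPKM or more in both libraries. Fos, a subunit of the AP-1 factor, had 209.6 FPKM in FBS/KSR cells and 58.7 in N2B27 cells, against 3.35 in XEN-like cells, or 62.6-fold (44 to 92.25) higher than in XEN-like cells. Egr1, a zinc finger factor induced by ERK signalling, had 66.25 FPKM in FBS/KSR cells and 37.75 in N2B27 cells, against 0.251 in XEN-like cells. Ctgf, a matrix protein induced by YAP and TGF-beta signalling, had 244 FPKM in FBS/KSR cells and 16 in N2B27 cells, against 4.33 in XEN-like cells, or 56.4-fold (44.1 to 73.35) higher. The 1 lower gene was Nr4a3, an orphan nuclear receptor, at 0.464 and 3.71 FPKM in FBS/KSR and XEN-like cells.

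Cell cycle genes were lower. All 34 list genes were at 1 FPKM or more in both libraries, with 0 higher and 25 lower (median -1.18). In N2B27 cells 20 of the 34 were lower and 0 higher, with a median of -1.10. Rrm2, the inducible subunit of ribonucleotide reductase, had 63.6 FPKM in FBS/KSR cells and 125.5 in N2B27 cells, against 361 in XEN-like cells, or 5.67-fold (5.30 to 6.07) lower in FBS/KSR than in XEN-like cells. Ccnd1, the G1 cyclin D1, had 10.4 FPKM in FBS/KSR cells and 39.4 in N2B27 cells, against 54.2 in XEN-like cells, the lowest of these 3 libraries being the FBS/KSR one. Ccne1, a cyclin of S phase entry, had 28.3 FPKM in FBS/KSR cells and 48.5 in N2B27 cells, against 121 in XEN-like cells. Cdk1, the mitotic kinase, had 73.4 FPKM in FBS/KSR cells and 77.1 in N2B27 cells, against 158 in XEN-like cells.

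The inhibitors of the cell cycle and p53 targets went both ways. Of 30 counted, 7 were higher and 3 lower (median 0.18). The shares were 23.3% and 10.0%, beside 16.1% and 10.3% over all genes counted, so the share lower was near that of all genes. Cdkn1a, which encodes the inhibitor p21, stood within 2-fold at 125 against 104 FPKM. The stress genes Gadd45a and Gadd45b went opposite ways. Gadd45a was lower, with 19.05 FPKM in FBS/KSR cells and 37.8 in N2B27 cells, against 193 in XEN-like cells, and Gadd45b was higher, with 39.2 FPKM in FBS/KSR cells and 20.5 in N2B27 cells, against 1.12 in XEN-like cells. Cdkn2a, the Ink4a and Arf locus, was lower, with 25.5 FPKM in FBS/KSR cells and 27.6 in N2B27 cells, against 65.2 in XEN-like cells.

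**Figure D4:**
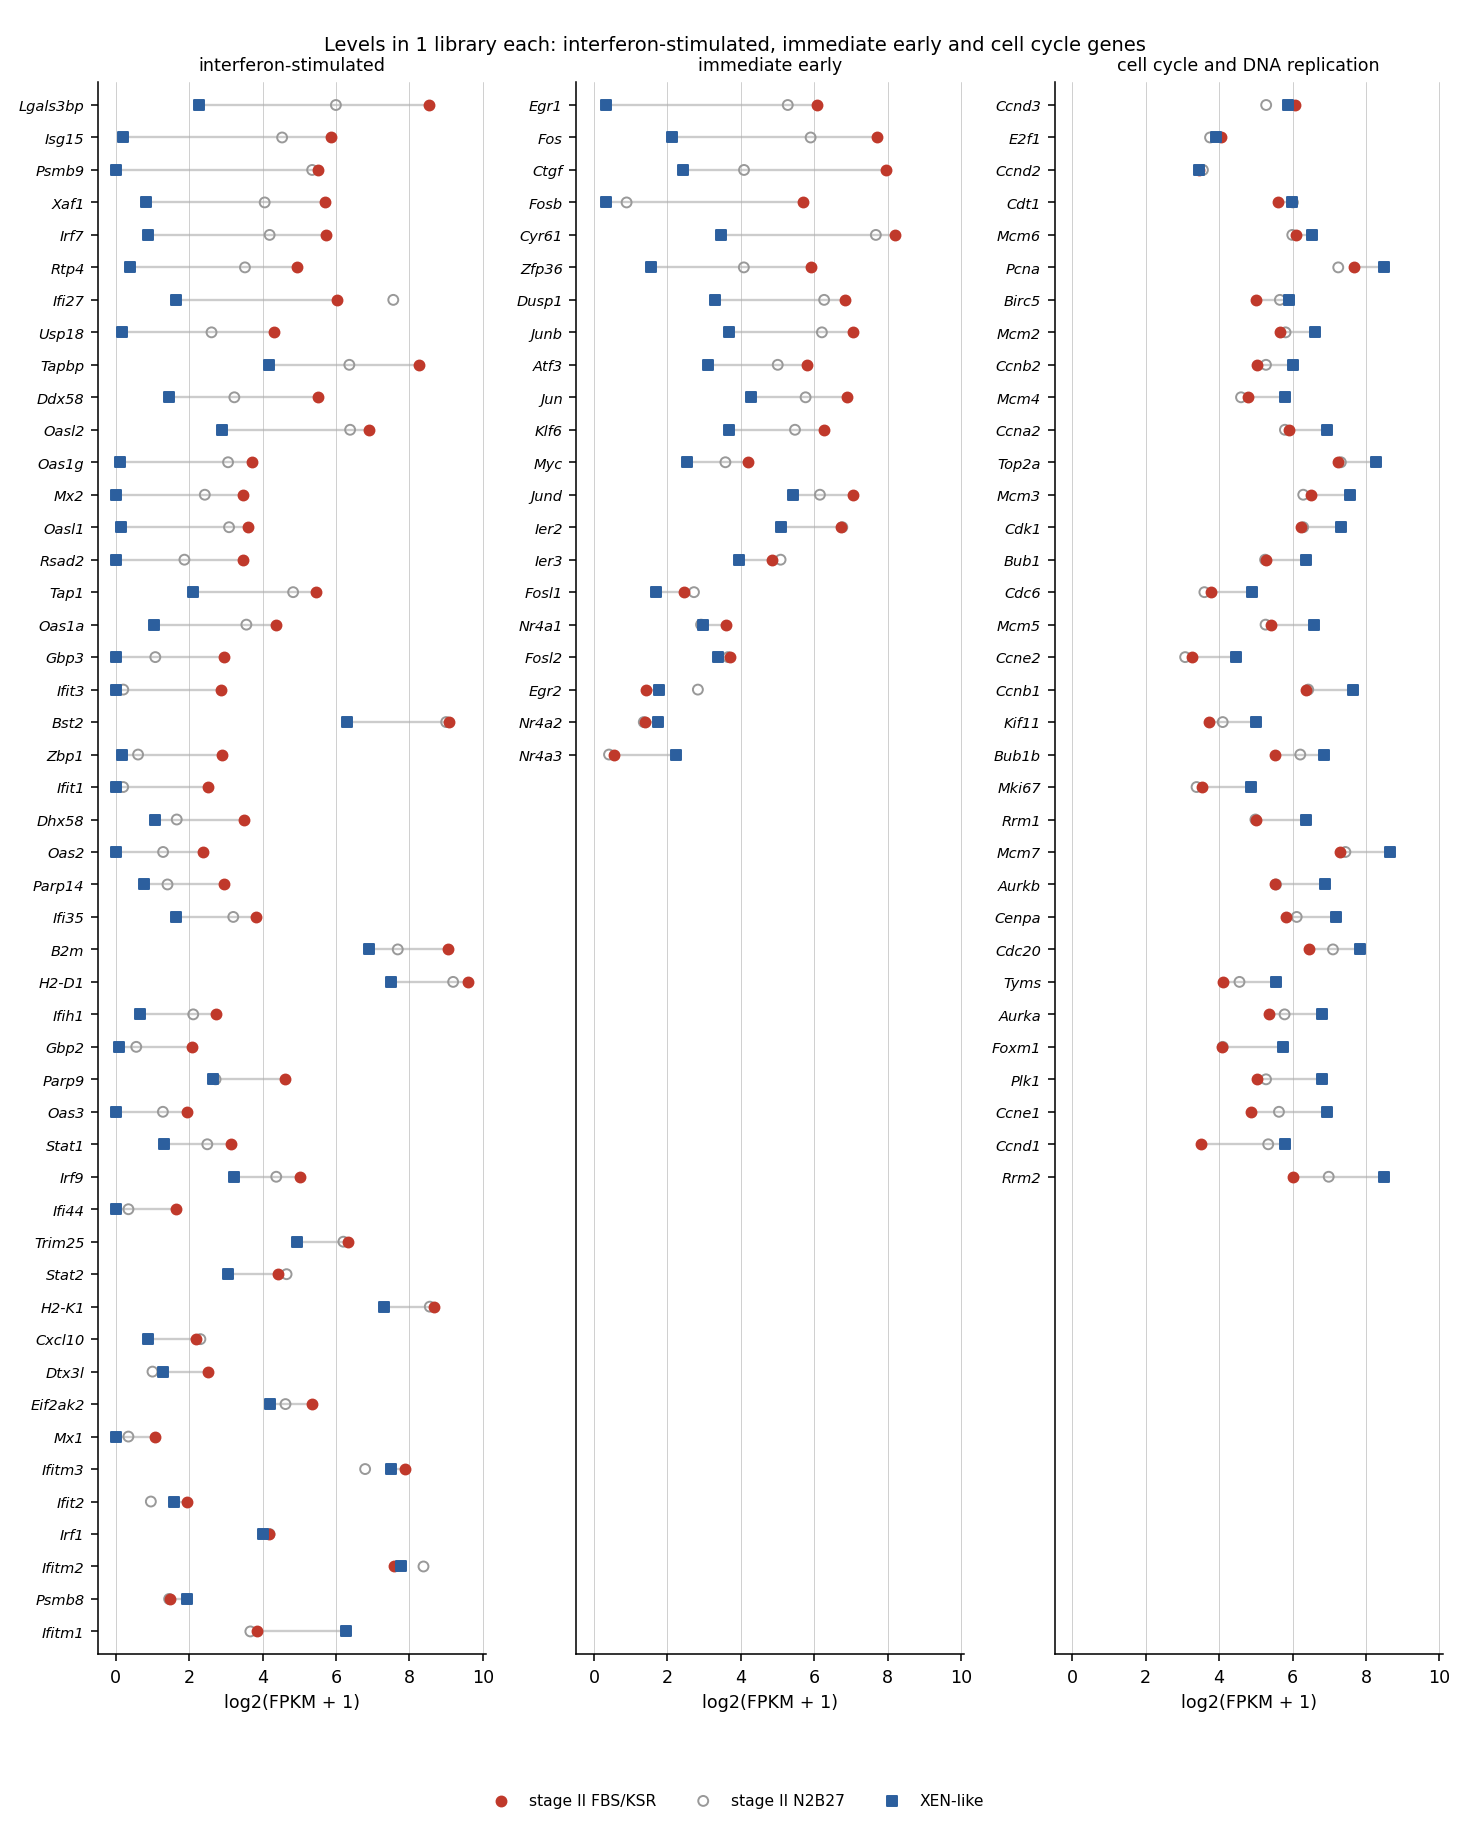
Levels of the counted interferon-stimulated, immediate early and cell cycle genes as log2(FPKM + 1) on the x axis, 1 library each for FBS/KSR, N2B27 and XEN-like cells. Of the libraries shown, FBS/KSR cells stand highest for most interferon-stimulated genes, N2B27 cells between and XEN-like cells lowest. For most cell cycle genes XEN-like cells stand highest.

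Among signalling pathways, Wnt targets split. Of 17 counted, 4 were higher and 6 lower (median -0.47). Of the 12 at 1 FPKM or more in both libraries, 2 were higher and 4 lower. Axin2, a feedback inhibitor and direct Wnt target, had 8.19 FPKM in FBS/KSR cells and 59.15 in N2B27 cells, against 106 in XEN-like cells, or 12.9-fold (11.2 to 14.95) lower in FBS/KSR than in XEN-like cells. Notum, a secreted Wnt deacylase, had 1.11 FPKM in FBS/KSR cells and 12.05 in N2B27 cells, against 9.17 in XEN-like cells, and Lef1, a nuclear Wnt factor, had 0.387 FPKM in FBS/KSR cells and 2.75 in N2B27 cells, against 2.91 in XEN-like cells. Higher were Dkk1, a Wnt antagonist, with 38.5 FPKM in FBS/KSR cells and 17.6 in N2B27 cells, against 11.4 in XEN-like cells, and Myc, with 17.4 FPKM in FBS/KSR cells and 10.9 in N2B27 cells, against 4.80 in XEN-like cells.

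The FGF and BMP families also went both ways. Of 12 FGF ligands, receptors and partners counted, 6 were higher and 3 lower. Of the 10 at 1 FPKM or more in both libraries, 4 were higher and 3 lower. Fgf10, a ligand of epithelial branching, had 37.2 FPKM in FBS/KSR cells and 1.30 in N2B27 cells, against 2.86 in XEN-like cells, or 13-fold (9.53 to 18.1) higher. Klb, the co-receptor of endocrine FGFs, had 37.6 FPKM in FBS/KSR cells and 9.995 in N2B27 cells, against 1.74 in XEN-like cells. Fgf3 and the receptor Fgfr4 were lower. Fgf3 had 9.43 FPKM in FBS/KSR cells and 0.915 in N2B27 cells, against 52.4 in XEN-like cells, and Fgfr4 had 34.8 FPKM in FBS/KSR cells and 68.75 in N2B27 cells, against 135 in XEN-like cells. Of 29 Nodal and BMP pathway genes counted, 9 were higher and 6 lower (median 0.41). Of the 29, 5 passed the filter through the FBS/KSR library alone, so that they had to stand higher there. Of the 22 at 1 FPKM or more in both libraries, 5 were higher and 5 lower. Smad7, the inhibitory SMAD, had 48.7 FPKM in FBS/KSR cells and 23.6 in N2B27 cells, against 6.54 in XEN-like cells, or 7.44-fold (6.01 to 9.33) higher. Lower were the BMP antagonist Nog, with 20.9 FPKM in FBS/KSR cells and 2.97 in N2B27 cells, against 65.1 in XEN-like cells, and Id2, a BMP target, with 5.56 FPKM in FBS/KSR cells and 11.3 in N2B27 cells, against 49.1 in XEN-like cells. Of 16 ERK feedback genes, 5 were higher and 2 lower.

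Epithelial genes were higher in part. Of 28 epithelial genes, all counted, 14 were higher and 2 lower (median 1.00), and among the 25 at 1 FPKM or more in both libraries, 12 were higher and 2 lower. Cdh1, which encodes E-cadherin, had 164 FPKM in FBS/KSR cells and 344 in N2B27 cells, against 17.7 in XEN-like cells, or 9.25-fold (8.38 to 10.2) higher than in XEN-like cells. Cldn4, a claudin of tight junctions, had 104 FPKM in FBS/KSR cells and 378 in N2B27 cells, against 1.96 in XEN-like cells. Krt7, a keratin of simple epithelia and trophoblast, had 50.6 FPKM in FBS/KSR cells and 21.4 in N2B27 cells, against 3.53 in XEN-like cells. Epcam, an epithelial adhesion molecule, was within 2-fold of XEN-like cells at 153 against 138 FPKM. Beside these, Cdh3 (P-cadherin) had 16.2 FPKM in FBS/KSR cells and 11.05 in N2B27 cells, against 1.37 in XEN-like cells. Of 17 integrins and cadherins counted, 8 were higher and 3 lower, and of the 12 at 1 FPKM or more in both libraries 6 were higher and 1 lower.

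Of 29 fibroblast and mesenchyme genes counted, 8 were higher and 12 lower (median -0.72), and of the 24 at 1 FPKM or more in both libraries 6 were higher and 11 lower. Vim, the intermediate filament vimentin, had 67.2 FPKM in FBS/KSR cells and 36.45 in N2B27 cells, against 1052 in XEN-like cells, or 15.7-fold (14.7 to 16.7) lower in FBS/KSR than in XEN-like cells. Twist1, a mesenchymal transcription factor, had 4.13 FPKM in FBS/KSR cells and 37.8 in N2B27 cells, against 37.2 in XEN-like cells, the FBS/KSR library being lowest of these 3. The type I collagen gene Col1a1 was higher. It had 114.5 FPKM in FBS/KSR cells and 16.1 in N2B27 cells, against 18.35 in XEN-like cells, or 6.24-fold (5.52 to 7.08) higher than in XEN-like cells, with 9144 FPKM in the MEF library. Lox, which cross-links collagen, and Bgn, a small matrix proteoglycan, were also higher. Lox had 11.3 FPKM in FBS/KSR cells and 2.235 in N2B27 cells, against 0.468 in XEN-like cells, and Bgn had 34 FPKM in FBS/KSR cells and 7.44 in N2B27 cells, against 2.50 in XEN-like cells. The summed level of the list was 574 FPKM in FBS/KSR cells, 462 FPKM in N2B27 cells and 1635 FPKM in XEN-like cells, of which Vim alone held 67.2 FPKM in FBS/KSR and 1052 FPKM in XEN-like cells. The part of remaining fibroblasts in these levels was not tested.

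Proteases of the matrix and lysosome were higher in part. Of 22 matrix proteases and inhibitors counted, 11 were higher and 2 lower (median 1.05), and 7 of the 22 were counted through the FBS/KSR library alone. Of the 15 at 1 FPKM or more in both, 5 were higher and 2 lower. Htra1, a secreted serine protease, had 276 FPKM in FBS/KSR cells and 94.3 in N2B27 cells, against 32.5 in XEN-like cells, or 8.49-fold (7.60 to 9.50) higher. Plaur, the urokinase receptor, had 61.2 FPKM in FBS/KSR cells and 30.5 in N2B27 cells, against 3.21 in XEN-like cells. Of 26 lysosome and endocytosis genes, each at 1 FPKM or more in both libraries, 12 were higher and 0 lower (median 0.96). The cathepsins Ctsd and Ctsl, lysosomal proteases, were both higher. Ctsd had 872 FPKM in FBS/KSR cells and 928 in N2B27 cells, against 286 in XEN-like cells, or 3.05-fold (2.94 to 3.16) higher, and Ctsl had 1498 FPKM in FBS/KSR cells and 757 in N2B27 cells, against 576 in XEN-like cells. Cd68, a lysosomal glycoprotein abundant in macrophages, had 87.3 FPKM in FBS/KSR cells and 27.1 in N2B27 cells, against 6.58 in XEN-like cells.

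Metabolic lists went both ways or lay mostly within 2-fold. Of 28 sterol and fatty acid synthesis genes, 0 were higher and 2 lower (median -0.33). Of 25 glycolysis and hypoxia genes counted, 9 were higher and 1 lower (median 0.05). Bnip3, a hypoxia-induced mitophagy receptor, had 99.8 FPKM in FBS/KSR cells and 12 in N2B27 cells, against 10.65 in XEN-like cells, or 9.37-fold (7.29 to 12.2) higher, and Slc2a1, the glucose transporter GLUT1, had 284 FPKM in FBS/KSR cells and 148 in N2B27 cells, against 135 in XEN-like cells. Gapdh, the glycolytic enzyme, was just past the threshold at 1867 against 3771 FPKM. Of 27 amino acid and ER stress genes, 6 were higher and 5 lower. The stress-induced pseudokinase Trib3 was higher, with 40.2 FPKM in FBS/KSR cells and 26.6 in N2B27 cells, against 1.23 in XEN-like cells, and Phgdh, the first enzyme of serine synthesis, was lower, with 88.8 FPKM in FBS/KSR cells and 315 in N2B27 cells, against 318 in XEN-like cells. Of 40 cytoplasmic ribosomal protein genes, 1 was higher and 1 lower (median 0.15). The lower one was Rpl12, with 184 FPKM in FBS/KSR cells and 239.6 in N2B27 cells, against 1189 in XEN-like cells.

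DNA methylation and imprinted genes differed in single members. Of 26 genes of DNA methylation and chromatin memory, 4 were higher and 3 lower (median -0.11). These shares of 15.4% and 11.5% lay near the 16.1% and 10.3% over all genes counted. Of the 24 at 1 FPKM or more in both libraries, 2 were higher and 3 lower. Dnmt3l, the cofactor of de novo methylation in germ cells, had 74.2 FPKM in FBS/KSR cells and 23.2 in N2B27 cells, against 0.0982 in XEN-like cells, with 1 read in XEN-like cells. Dnmt3a, a de novo methyltransferase, had 76.9 FPKM in FBS/KSR cells and 26.3 in N2B27 cells, against 35.3 in XEN-like cells, and the demethylating enzyme Tet2 had 5.89 FPKM in FBS/KSR cells and 3.86 in N2B27 cells, against 0.784 in XEN-like cells. Of 29 imprinted genes counted, 6 were higher and 6 lower (median -0.06, a sign that changed with the scaling). Of the 26 at 1 FPKM or more in both libraries, 4 were higher and 6 lower. H19, a maternally expressed non-coding RNA, had 3829 FPKM in FBS/KSR cells and 2111 in N2B27 cells, against 261 in XEN-like cells, or 14.7-fold (14.1 to 15.3) higher than in XEN-like cells. Sfmbt2, imprinted in extraembryonic tissue, had 79.6 FPKM in FBS/KSR cells and 69.4 in N2B27 cells, against 4.32 in XEN-like cells. Grb10, a growth inhibitor, had 53.4 FPKM in FBS/KSR cells and 37.7 in N2B27 cells, against 541 in XEN-like cells, or 10.1-fold (9.61 to 10.7) lower. Mest was lower than in XEN-like cells, with 5.68 FPKM in FBS/KSR cells and 223 in N2B27 cells, against 18.6 in XEN-like cells.

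The counted Hox genes were lower in part, and the neural genes mostly lower. Of 22 Hox genes counted, 0 were higher and 10 lower (median -0.94), and 8 of the 22 passed the filter through the XEN-like library alone. Of the 13 at 1 FPKM or more in both, 5 were lower. Hoxa9 had 0.871 FPKM in FBS/KSR cells and 2.56 in N2B27 cells, against 13.1 in XEN-like cells, or 15.1-fold (9.45 to 25.3) lower. Of 13 neural genes counted, 1 was higher and 9 lower (median -2.04), and 8 of the 13 were at 1 FPKM or more in both libraries, with 6 lower. Tubb3, a neuronal tubulin, had 4.13 FPKM in FBS/KSR cells and 6.32 in N2B27 cells, against 48.6 in XEN-like cells, or 11.8-fold (9.69 to 14.4) lower. Pax6, a homeobox factor of eye and neural tube, had 0.149 FPKM in FBS/KSR cells and 0.3025 in N2B27 cells, against 9.89 in XEN-like cells. Elavl4, a neuronal RNA-binding protein, had 0.0766 FPKM in FBS/KSR cells and 0.621 in N2B27 cells, against 15.4 in XEN-like cells. The higher gene was Mapt, which encodes the microtubule protein tau, with 9.31 FPKM in FBS/KSR cells and 15 in N2B27 cells, against 0.594 in XEN-like cells. The neural markers Sox1 and Dcx stood at 0.122 and 0 FPKM in FBS/KSR cells, and both at 0 in XEN-like cells.

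Markers of other cell types that a mixed culture could hold were read for comparison. Of 7 immune and blood genes counted of 19, all 7 were higher, 6 of them counted through the FBS/KSR library alone, with a summed level of 130.5 FPKM over the list in FBS/KSR cells and 9.92 FPKM in XEN-like cells. Of these sums Cd68, which is also in the lysosome list, held 87.3 and 6.58 FPKM. Lyz2, lysozyme of myeloid cells, had 14.6 FPKM in FBS/KSR cells and 2.10 in N2B27 cells, against 0.839 in XEN-like cells, and Csf1r, the macrophage growth factor receptor, had 4.03 FPKM in FBS/KSR cells and 0.402 in N2B27 cells, against 0.0826 in XEN-like cells. The defining leukocyte gene Ptprc (CD45) stood at 0.0199 FPKM in FBS/KSR cells and 0 in XEN-like cells, and the globin Hbb-bt at 0 in both. Of 10 endothelial genes counted, 5 were higher and 0 lower, 3 of the 10 counted through the FBS/KSR library alone and 2 of the other 7 higher, with a summed level of 312 FPKM over the list in FBS/KSR cells and 265.5 FPKM in XEN-like cells. Cdh5 (VE-cadherin) had 35.1 FPKM in FBS/KSR cells and 7.19 in N2B27 cells, against 5.18 in XEN-like cells, and Pecam1, also a marker of pluripotent cells, had 10.47 FPKM in FBS/KSR cells and 0.644 in N2B27 cells, against 0.143 in XEN-like cells, with 50.7 FPKM in ESCs. Of 13 muscle genes counted, 6 were higher and 2 lower (4 and 1 of the 9 at 1 FPKM or more in both), and the myogenic factor Myog was at 0 in both libraries. The part of immune, endothelial or muscle cells in the results was not tested.

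Most counted gut and secretory genes were higher. Of 28 in the list, 15 were counted, with 11 higher and 1 lower (median 1.65), and 6 of the 15 passed the filter through the FBS/KSR library alone. Of the 8 at 1 FPKM or more in both libraries, 5 were higher and 1 lower. Pga5, a pepsinogen of stomach, had 167 FPKM in FBS/KSR cells and 2.81 in N2B27 cells, against 7.499 in XEN-like cells, or 22.3-fold (18.1 to 27.8) higher than in XEN-like cells. Gkn1, a gastrokine of stomach mucosa, had 66.6 FPKM in FBS/KSR cells and 11.2 in N2B27 cells, against 2.13 in XEN-like cells. S100g, the calcium-binding protein calbindin-D9k of gut, uterus and yolk sac, had 292 FPKM in FBS/KSR cells and 3934 in N2B27 cells, against 3403 in XEN-like cells, or 11.7-fold (11.1 to 12.2) lower. Among surface markers, Cd24a was lower, with 12.9 FPKM in FBS/KSR cells and 105.5 in N2B27 cells, against 262 in XEN-like cells, and Ly6a (Sca-1), an interferon-inducible surface protein, was higher, with 189 FPKM in FBS/KSR cells and 58.5 in N2B27 cells, against 3.61 in XEN-like cells.

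Apart from list members, the largest rises among entries at 10 FPKM or more included Slc38a6, an amino acid transporter gene, with 6996 FPKM in FBS/KSR cells and 8101 in N2B27 cells, against 36.85 in XEN-like cells, and the circadian gene Ccrn4l (nocturnin), with 2054 FPKM in FBS/KSR cells and 2062 in N2B27 cells, against 8.78 in XEN-like cells. Rab3gap1, a GTPase-activating subunit, had 1685 FPKM in FBS/KSR cells and 2072 in N2B27 cells, against 15.8 in XEN-like cells. These 3 were low in MEF as well, at 31, 15.3 and 20.9 FPKM, and in the CiPSC line, at 32.4, 17.3 and 15.3 FPKM, and they were highest of all in the stage III day 4 control, at 11590, 3554 and 3295 FPKM. RP23-20G7.4 and Wdr31 were also highest in that control, at 2377 and 728 FPKM. They had 1348 and 311 FPKM in FBS/KSR cells, against 3.01 and 3.94 in XEN-like cells. The pseudogenes Rpl17-ps5 and Rps3a2 were among the largest rises too, at 152 and 117 FPKM in FBS/KSR cells, against 0 and 0.149 in XEN-like cells. Whether all reads of these entries came from the genes named was not tested, so their levels are uncertain. Zg16, a secretory granule lectin, had 134 FPKM in FBS/KSR cells and 14.2 in N2B27 cells, against 0.1855 in XEN-like cells, and Trap1a, an X-linked tumour antigen gene of early embryos and placenta, had 109 FPKM in FBS/KSR cells and 164 in N2B27 cells, against 0.2 in XEN-like cells.

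The largest falls were held by genes of several classes. Pitx1, a homeobox factor of hindlimb and pituitary, had 74.5 FPKM in FBS/KSR cells and 451 in N2B27 cells, against 1563 in XEN-like cells, or 21-fold (20.0 to 22) lower in FBS/KSR than in XEN-like cells. Gbx2, a homeobox factor of the midbrain border, had 0.273 FPKM in FBS/KSR cells and 5.06 in N2B27 cells, against 44 in XEN-like cells. Ramp1, a partner of the calcitonin receptor-like receptor, had 1.16 FPKM in FBS/KSR cells and 7.37 in N2B27 cells, against 87.5 in XEN-like cells, or 75.4-fold (49.95 to 119.5) lower. Thbs4, a thrombospondin, had 0 FPKM in FBS/KSR cells and 0.2195 in N2B27 cells, against 22.2 in XEN-like cells, or at least 205-fold lower. Dpp4, a surface dipeptidase, had 4.71 FPKM in FBS/KSR cells and 10.3 in N2B27 cells, against 109.6 in XEN-like cells. The entries Yam1 and Rrp1 stood at 11.9 and 5.80 FPKM in FBS/KSR cells, against 331 and 148 in XEN-like cells. They were also high in MEF, at 326 and 107 FPKM, and in the stage III day 4 control, at 372 and 71.6 FPKM. In N2B27 cells they had 18.8 and 4.56 FPKM. The cause of this split between libraries was not tested. For Ramp1, Gbx2 and Pitx1 the FBS/KSR cells stood lowest, N2B27 cells between and XEN-like cells highest.

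**Figure D5:**
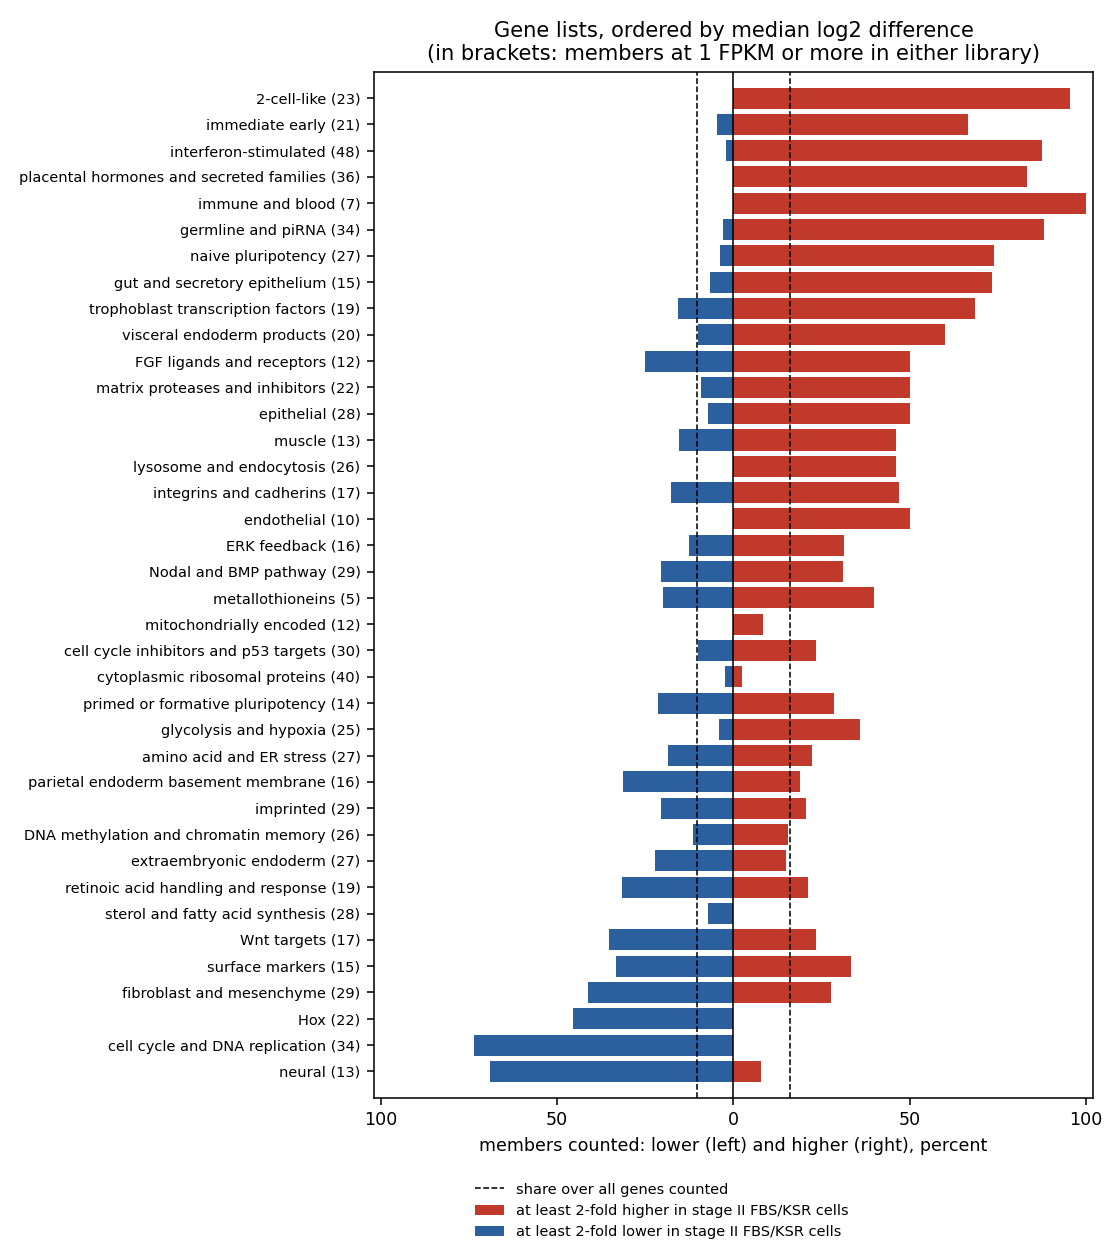
For each of 38 gene lists, the share of counted members at least 2-fold higher (right) and lower (left) in FBS/KSR than in XEN-like cells, in percent, with the number counted in brackets and lists ordered by their median log2 difference; dashed lines mark the shares over all 13677 genes (16.1% higher and 10.3% lower). The 2-cell-like, immediate early, interferon-stimulated and placental lists stand at the top, and the Hox, cell cycle and neural lists at the bottom. Of the counted genes, 22 of 23 in the 2-cell-like, 28 of 36 in the placental, 29 of 34 in the germline and 22 of 48 in the interferon list passed the filter through the FBS/KSR library alone and had to stand higher there.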

How the data were processed

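The deposited bulk table holds FPKM values made by the authors, per the labels, for 14 libraries of total RNA prepared with an NEBNext Ultra RNA kit. Per the submitters' processing notes the build was mm10, and the tools named, with no role, are Bowtie2, Bismark, FastQC and Cell Ranger 2.0.1. The sources used here do not give the aligner of the bulk reads, the counter, the annotation or the strandedness, so overlapping and antisense genes are uncertain. The single-cell and the bisulfite libraries were not used here.

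Groups came from sample titles, and each held 1 library, so no test was run. Because FPKM values of an entry differ between libraries by reads and totals only, whole reads were recovered for 23178 entries. Lengths came out whole within 0.001 for 99.93% of 17036 entries. Exact 95% binomial intervals of ratios were computed from these reads with scipy 1.17.1 (python 3.11.15, numpy 2.4.6, pandas 2.3.3, matplotlib 3.10.9). Differences used log2(FPKM + 1). The read recovery and the 2-fold calls were run on simulated reads with known folds. Those reads had equal depth in all libraries and counting error only, so they say nothing of differences between cultures. Of the entries, 126 shared a name and 27 held a date in place of one; neither kind was named.

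The members, 38 gene lists and 30 key genes were chosen with earlier results of these data known. Genes named were key genes, list members, the 20 largest rises and falls at 10 FPKM or more with an ordinary symbol, the 20 most abundant genes of each library, and the 2 entries on either side of the threshold. Promoters came from RefSeq (GRCm38.p6), matched by symbol for 9889 of the counted genes.

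Alternatives were other pseudocounts, expression filters, scalings and a larger threshold.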

Additional observations from a re-analysis of the deposited data

How the results depend on the processing

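No paired analysis was possible because each group holds 1 library, and for the same reason no replicate could be left out. With a pseudocount of 5, 1045 genes were higher and 685 lower, in place of 2201 and 1403. Among genes at 5 FPKM or more, 1426 were higher. At a 4-fold threshold, 794 were higher and 324 lower. With median-of-ratios scaling the median of all genes was 0.08 in place of -0.02, with 2396 higher and 1186 lower. The median of the FGF list was 1.12, and -0.075 when all genes above 0 were counted. Medians near 0 of the imprinted, amino acid and ER stress, and basement membrane lists also changed sign under at least 1 alternative. Of the 29 key genes counted, 0 changed sign under those of the 8 alternatives that gave them a value; Cdx2 had none at 5 FPKM or more. With a pseudocount of 5, 3 of them were no longer 2-fold higher, Nanog at 0.97 in place of 2.11, Cdx2 at 0.59 in place of 1.48 and Sox2 at 0.68 in place of 1.03. With that pseudocount 7 of the list medians at 1 or more on the log2 scale were below 1, among them the placental list at 0.87 in place of 2.27 and the germline list at 0.91 in place of 2.18. The 2-cell-like median was then 1.24 in place of 2.96, and the naive median 1.15 in place of 2.11. With a pseudocount of 0.1 the 2-cell-like median was 6.11, the germline median 4.68 and the placental median 4.86, so the size of these medians depends on the pseudocount. The cause of the other shifts was not tested. XEN-like cells were read less deeply, and a gene at 0 reads there can lie anywhere below the floor of 3 reads.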

Other observations

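Genes of the sex chromosomes were read as well, chosen after their values were seen. All 6 counted Y-linked genes were at least 2-fold higher in FBS/KSR than in XEN-like cells. Ddx3y, an RNA helicase, had 19.5 FPKM in FBS/KSR cells and 9.01 in N2B27 cells, against 4.57 in XEN-like cells, and Eif2s3y, a translation initiation factor subunit, had 60.7 FPKM in FBS/KSR cells and 54.75 in N2B27 cells, against 17.5 in XEN-like cells. Xist, the RNA that coats the inactive X, was within 2-fold of XEN-like cells, at 61.8 FPKM in FBS/KSR cells and 38.5 in N2B27 cells, against 81.7 in XEN-like cells. Of 464 counted genes on the X, 99 (21.3%) were higher and 56 (12.1%) lower, beside 16.1% and 10.3% over all genes. Chromosomes 7 and 11 came near the X, with 20.1% and 19.4% higher. The sources used here do not say which sex the embryos behind each culture had. A difference in sex between the cultures thus cannot be told apart from medium, stage and purification.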
